A study of Homo sapiens with 4 samples.

Results

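Annexins are cytosolic proteins that bind acidic phospholipids of membranes when calcium rises. They take part in membrane repair, exocytosis and endocytosis, and several form complexes with small calcium-binding proteins of the S100 family. The annexin genes ANXA1, ANXA4 and ANXA5 are described here in nuclear RNA of UV-treated and untreated cells. They are 3 of the 4208 genes in the deposited table, were picked by gene symbol with their values already known, and are therefore described and not tested. Each of the 3 symbols has 1 row. ANXA2 and ANXA11 are the 2 other annexin genes with a row.

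The cells were A549, an established line from a human non-small cell lung cancer. The UV+ condition received UV light of 254 nm at 40 J/m2 and recovered for 16 h, the UV− condition received none, and each had 2 libraries. RNA of the nucleus was sequenced after removal of ribosomal RNA, with its strand kept. For each gene, reads were counted in a window of 500 nt upstream of the polyadenylation site (PAS), which stands for total RNA, and in a window of 500 nt downstream of it, which stands for RNA not cleaved at the PAS. The question was whether cleavage at the PAS changes after UV, and a higher downstream/upstream ratio stands for less cleavage. Values are normalized reads, that is, reads divided by 1 size factor per library (0.719 to 1.23). As all windows have the same length, levels can be compared between genes. In this bulk RNA, fewer cells that express a gene and less RNA per cell cannot be told apart.

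The upstream windows of all genes held 262657 to 481798 reads per library, and the downstream windows 50814 to 92566 reads. The median downstream window held 5 to 10 reads. UV+ replicate 2 had the most downstream windows without a read (498, against 191 to 305 in the other libraries). Of 11 markers of epithelial and A549 cells, 6 had a row in the table, and of 10 markers of other cell types, 0 had one. Among the epithelial markers KRT18 had a row, while KRT8, KRT19, EPCAM and CDH1 did not. Genes were kept by their reads in both windows, so that a gene without a row may still be expressed.

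The 3 annexin genes lie on different chromosomes of hg19. ANXA1 lies on the plus strand of chromosome 9, from 75766647 to 75785310. ANXA4 lies on the plus strand of chromosome 2, from 69969127 to 70053596. ANXA5 lies on the minus strand of chromosome 4, from 122589152 to 122618147. The stretch of 30 nt around the poly(A) signal, the hexamer that directs cleavage, is shown for each gene because it precedes the site that both windows flank, which is the gene end given in the table. Within 24 nt of this site ended 3 of 8 annotated transcripts of ANXA1, 0 of 12 of ANXA4 and 0 of 11 of ANXA5. The hexamer is in capitals, and the sequences come from the GRCh37 assembly at chr9:75785275-75785304, chr2:70053561-70053590 and chr4:122589158-122589187.
ANXA1: tatgtagctgaaAATAAAatgacgtcacaa
ANXA4: tacttggatttaATTAAAaagttcactttg
ANXA5: agattaatgaaaAATAAAcatttctgtccc
In all 3 genes the hexamer began 24 nt before the PAS, which holds for 5.64% of the 4205 genes that could be placed on the assembly. AATAAA occurred in the last 50 nt of 58.0% of these genes and ATTAAA in those of 18.5%, searched on the sense strand. The first 30 nt after the PAS are shown because a stretch rich in T and G commonly follows a cleavage site, and the longest run of these letters is in capitals. They lie at chr9:75785311-75785340, chr2:70053597-70053626 and chr4:122589122-122589151.
ANXA1: TGGTGTGTcattgactcttctattttgatt
ANXA4: cGTGGaaaaataattttaatttaaaaatgg
ANXA5: ttatgtgtacaTGTGTGTTTagatttatta
The longest run had 8 nt in ANXA1, 4 nt in ANXA4 and 9 nt in ANXA5, where the median gene had 6 nt. TGTGT occurred within 50 nt after the PAS of ANXA1 and ANXA5 but not in this window of ANXA4, and in 16.8% of all genes. TTTTT occurred in this window of ANXA4 but not of ANXA1 or ANXA5, and in 25.8% of all genes.

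What is annotated downstream differed between the 3 genes. The downstream window of ANXA1, from 75785311 to 75785810, overlapped 0 nt of any exon of GENCODE 44. That of ANXA5, from 122588652 to 122589151, overlapped an exon of ANXA5 itself in 51 nt. The downstream window of ANXA4, from 70053597 to 70054096, lay within an annotated exon of ANXA4 in all of its 500 nt, and the farthest annotated transcript ended 648 nt past the PAS of the table. Reads of such a longer ANXA4 transcript would be counted as downstream reads. A downstream window wholly inside an exon of the same strand was found in 26.0% of all genes. No exon of the opposite strand overlapped the 3 windows.

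Already in untreated cells, all 3 genes had many upstream reads and a small share of reads downstream. ANXA1, which encodes a protein that dampens inflammation through formyl peptide receptors, had 1663 ± 185.2 normalized upstream reads in UV− (mean ± SD, n = 2) and ranked 21st of 4208 genes. ANXA5 encodes the protein that binds phosphatidylserine on dying cells and had 469.3 ± 35.9 (n = 2, rank 119). ANXA4, an annexin of epithelial cells, had 272.0 ± 61.9 (n = 2, rank 227), where the median gene had 26.9. Downstream levels were nearer to the middle of the table, with 14.4 ± 5.25 normalized reads in ANXA1, 9.67 ± 2.07 in ANXA4 and 5.78 ± 2.27 in ANXA5 (n = 2 each), where the median gene had 7.46. Downstream reads were thus 0.857%, 3.43% and 1.22% of the normalized reads in both windows of ANXA1, ANXA4 and ANXA5, where the median gene had 22.9%. A smaller share was found in 3.62%, 9.97% and 4.53% of the 4194 genes with reads in UV−.

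The order of the upstream levels in UV− was ANXA2 (2824 ± 256.7), ANXA1, ANXA5, ANXA4 and ANXA11 (17.0 ± 0.373; n = 2 each), and the libraries of neighbors in this order did not overlap. In UV+ the order was the same, with 3210 ± 326.1 in ANXA2, 1334 ± 46.6 in ANXA1, 653.7 ± 119.4 in ANXA5, 260.4 ± 10.7 in ANXA4 and 11.3 ± 3.62 in ANXA11 (n = 2 each), again without overlap. Downstream levels gave no such order in UV−. There the ranges of ANXA11, ANXA1, ANXA2 and ANXA4 ran into one another, and only that of ANXA5 lay below the other 4.

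**Figure D1:**
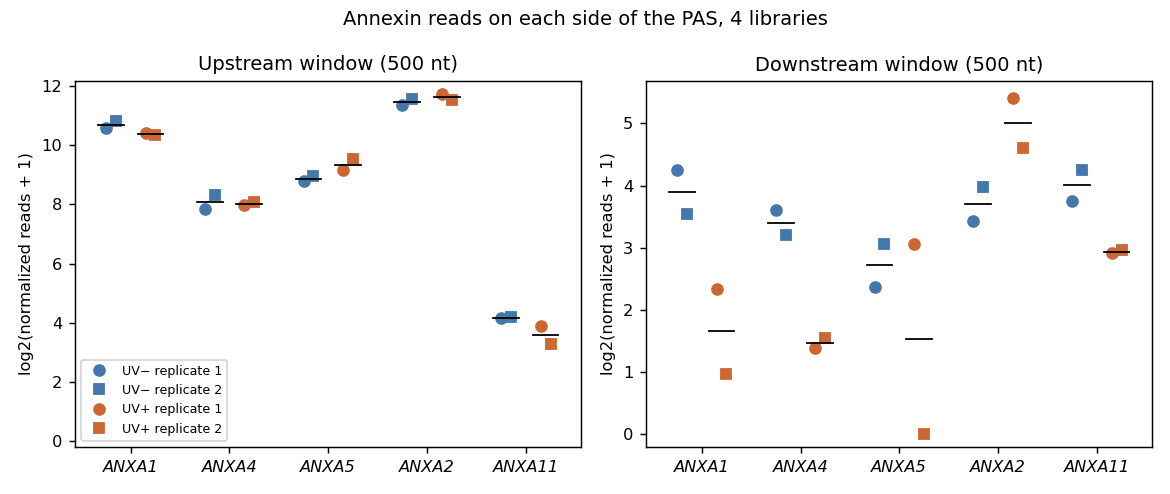
Normalized reads of the 5 annexin genes in the upstream (left) and downstream (right) window, as log2(normalized reads + 1), with 1 point per library and a line at the mean of these log2 values in each condition. Upstream means of the 5 genes differ by −0.58 (ANXA11) to 0.47 (ANXA5) in log2. The upstream points of ANXA1 and ANXA11 are lower in UV+ and those of ANXA5 higher. The downstream points of ANXA1, ANXA4 and ANXA11 are lower in UV+ and those of ANXA2 higher.

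The way the genes entered the table bears on every downstream value. The study's minimum of 10 reads in both windows was reached by ANXA1, ANXA4 and ANXA5 in UV− but not in UV+, with 26, 18 and 12 downstream reads over both UV− libraries against 6, 4 and 9 over both UV+ libraries. This held for 23.2% of all genes, while 29.2% reached it in UV+ only and 46.2% in both conditions. The 3 genes were thus in the table only through the condition where their downstream reads were higher, which favors a lower ratio in UV+.

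Values are given for replicate 1 first and replicate 2 second. Downstream of the PAS of ANXA1, UV− held 13 and 13 reads, while UV+ held 5 and 1. After normalization these were 18.1 and 10.7 in UV−, and 4.07 and 0.967 in UV+. Both UV+ libraries lay below both UV− libraries, which held for 30.4% of all genes in this window (36.8% the other way). The mean went from 14.4 ± 5.25 to 2.52 ± 2.19 normalized downstream reads (n = 2). The difference of the mean log2(value + 1) was −2.24 (SE 0.78, limma). Upstream, ANXA1 had 1532 and 1794 normalized reads in UV− and 1367 and 1301 in UV+. These libraries did not overlap either, as in 41.3% of all genes (28.1% the other way), with a log2 fold change of −0.31 (SE 0.19). The downstream/upstream ratio changed by −1.93 in log2 (SE 0.9), again without overlap between conditions, which held for 12.9% of all genes (32.6% the other way). Of all genes, 2.5% had a lower value and the median was 0.38, which is given as a description.

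ANXA4 had 8 and 10 downstream reads in UV− and 2 and 2 in UV+. Normalized, these were 11.1 and 8.2 in UV− against 1.63 and 1.93 in UV+. The conditions did not overlap, as in 30.4% of all genes (36.8% the other way), and the replicates of UV+ were nearly equal. The downstream log2 fold change was −1.93 (SE 0.77, limma). In the upstream window the libraries had 228.2 and 315.8 normalized reads in UV− and 252.9 and 268.0 in UV+. The UV+ values fell between those of UV−, with a log2 fold change of −0.04 (SE 0.22) that turned to 0.19 without UV− replicate 2 and to 0.038 with TMM factors. In the ratio the change was −1.88 in log2 (SE 0.9), also without overlap, as in 12.9% of all genes (32.6% the other way). A lower value was found in 2.71% of genes.

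ANXA5 had 3 and 9 downstream reads in UV− and 9 and 0 in UV+. Normalized, these were 4.17 and 7.38 in UV− against 7.32 and 0 in UV+. The conditions overlapped, and UV+ replicate 1 was close to UV− replicate 2. The downstream log2 fold change was −1.19 (SE 1.04, limma) and that of the ratio −1.66 (SE 1.17). Both rest on UV+ replicate 2, the library with the most empty downstream windows. Without this library they were 0.34 and 0.057, and the part of the empty windows was not tested. Upstream, ANXA5 had 443.9 and 494.6 normalized reads in UV− and 569.2 and 738.1 in UV+. These did not overlap, as in 28.1% of all genes (41.3% the other way), and the log2 fold change was 0.47 (SE 0.21).

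The precision of each library can be read from the share of downstream reads among the reads of both windows. For ANXA1 this share was 1.17% (95% Wilson interval 0.683% to 1.99%) of 1114 reads and 0.591% (0.346% to 1.01%) of 2200 reads in UV− replicates 1 and 2. In UV+ it was 0.297% (0.127% to 0.692%) of 1686 reads and 0.0743% (0.0131% to 0.42%) of 1346 reads. The interval of UV+ replicate 1 overlapped that of both UV− libraries, and that of UV+ replicate 2 lay below the interval of UV− replicate 1 but overlapped that of UV− replicate 2. For ANXA4 the shares were 4.65% (2.38% to 8.91%) and 2.53% (1.38% to 4.6%) in UV−. They were 0.639% (0.175% to 2.3%) and 0.717% (0.197% to 2.58%) in UV+. ANXA5 had 0.932% (0.317% to 2.7%) and 1.47% (0.776% to 2.77%) in UV−, and 1.27% (0.669% to 2.39%) in UV+ replicate 1. In UV+ replicate 2 it had 0 of 763 reads downstream, which allows a share of up to 0.393% by a limit of 3 counts (0.501% by the upper Wilson bound). These intervals and this limit cover counting error only, since PCR copies were not told apart.

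**Figure D2:**
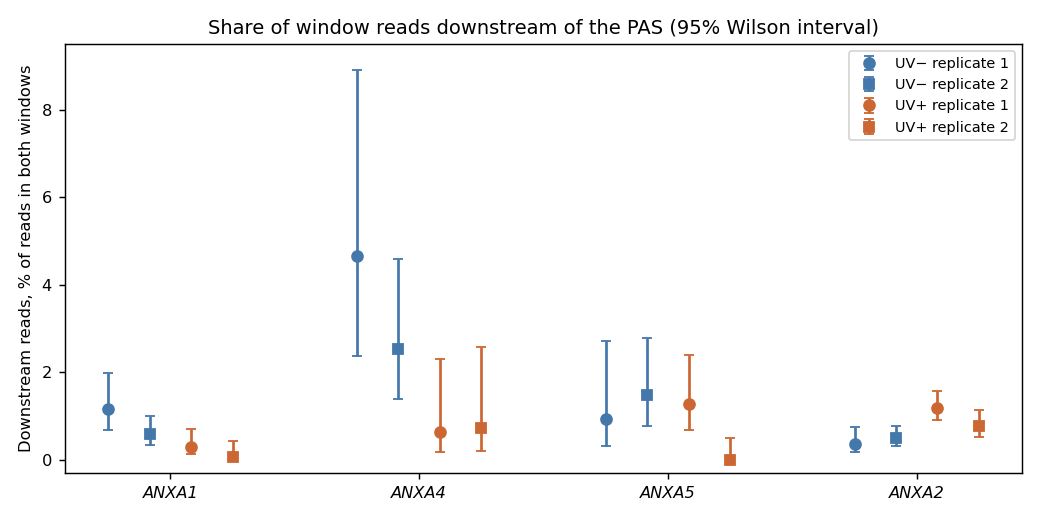
Share of downstream reads among the reads of both windows (y axis, percent) for ANXA1, ANXA4, ANXA5 and ANXA2 in each library, with 95% Wilson intervals as bars. ANXA4 goes from 4.65% and 2.53% in UV− to 0.639% and 0.717% in UV+, and ANXA2 from 0.367% and 0.489% to 1.19% and 0.773%.

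Measured against the whole table, few of these changes passed a threshold. In the limma fit of the ratio, 0 of the 3 genes had an unadjusted p under 0.05 in either direction, the threshold the study used, where 2.4% of all genes were lower and 11% higher, and only 0.0238% and 0.143% after adjustment. With edgeR and with DESeq2 on whole reads recovered from the values, 2 of the 3 genes, ANXA1 and ANXA4, were lower at this threshold, where 2.97% and 2.57% of all genes were. At a Benjamini-Hochberg adjusted p under 0.05, 0 of 3 had a changed ratio with limma, edgeR or DESeq2. Downstream, ANXA1 and ANXA4 were lower at an unadjusted p under 0.05 in limma, as were 18% of all genes, and 0 of 3 passed after adjustment, where 9.41% of all genes were lower and 11.7% higher (21.2% before adjustment). After adjustment 1 of 3 was lower with edgeR and with a pseudocount of 5, whereas with DESeq2 0 of 3 were lower even at an unadjusted p under 0.05. Over all 4208 genes, 442 were lower after adjustment with edgeR and 486 with a pseudocount of 5, against 396 in the main fit. Dropping each library in turn moved the downstream change (log2) within −2.92 and −1.56 in ANXA1, −2.13 and −1.73 in ANXA4, and −2.72 and 0.34 in ANXA5. Upstream these limits were −0.43 and −0.20 in ANXA1, −0.28 and 0.19 in ANXA4, and 0.28 and 0.65 in ANXA5. Such fits keep 1 library in a condition, so calls of the 3 genes are not counted for them. Upstream, ANXA5 was higher at an unadjusted p under 0.05, as were 16.7% of all genes (27.9% were lower), and 0 of 3 passed after adjustment in either direction, where 11.7% were higher and 20.7% lower. Since the genes were picked with these values known and entered the table through UV− alone, the counts are no evidence of a change. With 2 libraries per condition, an exact test of 1 gene cannot give a p below 0.33. None of the 3 genes had a mean of 10 normalized downstream reads, so that 0 of 3 passed the filter on low values in this window, while 3 of 3 passed it upstream.

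**Figure D3:**
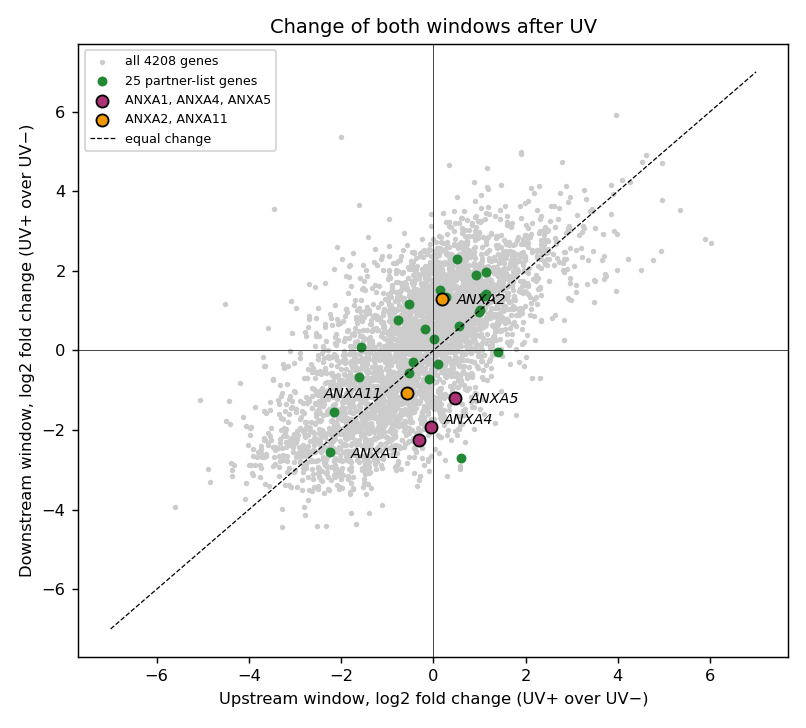
Log2 fold change (UV+ over UV−) of the upstream window (x axis) and the downstream window (y axis) of all 4208 genes (gray), the partner genes listed in the text (green), ANXA1, ANXA4 and ANXA5 (purple) and ANXA2 and ANXA11 (orange). The purple points lie below the dashed line of equal change, at upstream values between −0.31 and 0.47, and ANXA2 lies above it.

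The size of the ratio change in ANXA1 and ANXA4 depended on the setting, and its direction did not. As their ratios did not overlap between conditions, leaving out a library could not turn the direction. Entry into the table through UV− alone also favors a lower ratio. Leaving out each library in turn gave −2.57 to −1.28 for ANXA1 and −2.32 to −1.45 for ANXA4. For ANXA5 the range was −3.37 to 0.057. A pseudocount of 5, which damps changes of low counts, gave −1.06, −1.06 and −0.91 for ANXA1, ANXA4 and ANXA5.

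**Figure D4:**
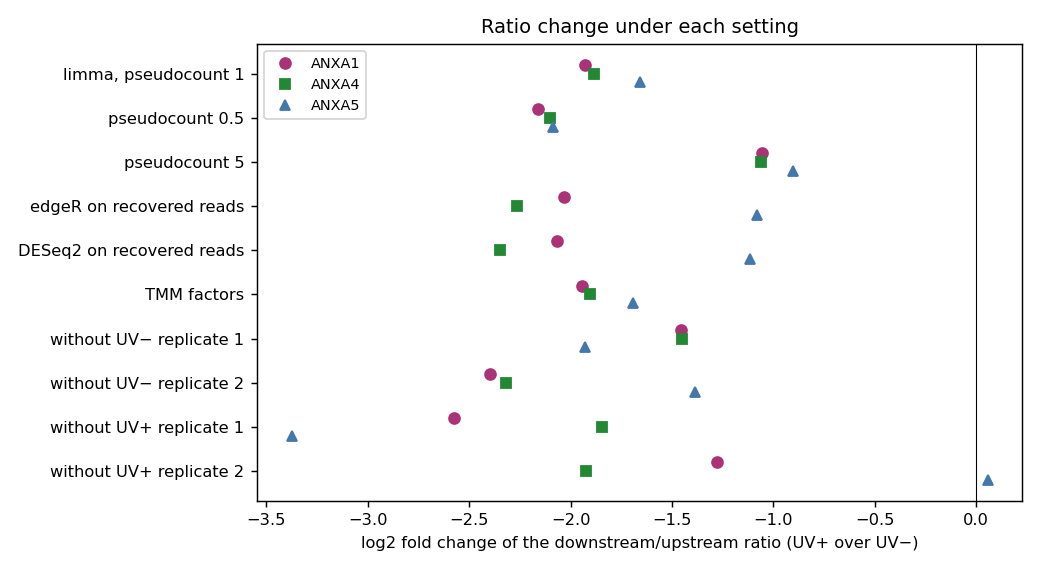
Log2 fold change of the downstream/upstream ratio (x axis, UV+ over UV−) of ANXA1, ANXA4 and ANXA5 under each setting (rows). ANXA1 and ANXA4 stay below −1 in each row, and ANXA5 reaches 0.057 without UV+ replicate 2.

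ANXA2 and ANXA11 were tested, as they did not belong to the chosen genes. They and the partner lists were also set with earlier results of these data known, which limits their p-values. ANXA2 forms a complex with S100A10 at membranes and shares sequence with processed pseudogenes, which makes its counts less certain. It had 9.74 and 14.8 normalized downstream reads in UV− and 41.5 and 23.2 in UV+. Both UV+ libraries were above both UV− libraries, as in 36.8% of all genes (30.4% the other way). The downstream log2 fold change of ANXA2 was 1.30 (SE 0.47, adjusted p = 0.069, limma) and that of its ratio 1.12 (SE 0.58, unadjusted p = 0.08, adjusted p = 0.42, limma). Its upstream level differed by less than the replicates allowed to call (0.18, SE 0.2, adjusted p = 0.5, limma). ANXA11, which binds the calcium sensor ALG-2, was a gene of low upstream level with 47.4% of its normalized reads downstream in UV−. All 500 nt of the ANXA11 downstream window lay in an annotated exon. It had 12.5 and 18.0 normalized downstream reads in UV− and 6.51 and 6.77 in UV+, both lower, as in 30.4% of all genes. Its downstream log2 fold change was −1.07 (SE 0.56, adjusted p = 0.18, limma), and its ratio changed by −0.49 (SE 0.72, unadjusted p = 0.51, limma). Upstream, the log2 fold change of ANXA11 was −0.58 (SE 0.54, adjusted p = 0.42, limma). Both UV+ libraries were lower there, as in 41.3% of all genes (28.1% the other way). Whether the change of ANXA2 differs from that of ANXA1, ANXA4 or ANXA5 was not tested.

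Gene length went with the upstream change across the table, and the 3 genes have different lengths. ANXA4 is 84470 nt long and belongs to the longest of 4 equal groups, whose median upstream log2 fold change was −1.56. With −0.04, ANXA4 stood above 91.4% of that group. ANXA5, with 28996 nt and 0.47, stood above 81.4% of the third group, whose median was −0.33. ANXA1, with 18664 nt and −0.31, stood above 29.4% of the second group, whose median was 0.14. ANXA2, with 50836 nt and 0.18, stood above 94.1% of the longest group. These positions are given as a description.

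**Figure D5:**
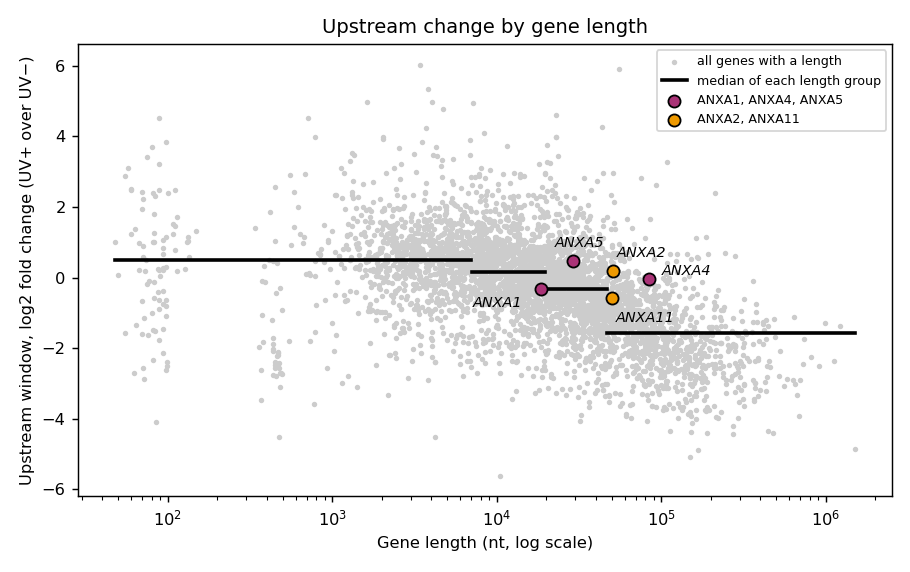
Upstream log2 fold change (y axis, UV+ over UV−) against gene length (x axis, nt, log scale) for all genes (gray), with the median of each of 4 length groups (black lines). ANXA4 (−0.04) and ANXA2 (0.18) lie above the median of the longest group (−1.56).

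The genes whose profile was most like that of each annexin were found by the Euclidean distance over 8 values, log2(normalized reads + 1) of both windows in 4 libraries. For ANXA1 these were ALDH3A1, an aldehyde dehydrogenase (distance 2.01), IGFBP3, which binds insulin-like growth factors (2.21), and TM4SF4, a tetraspanin-like membrane protein (2.54). For ANXA4 they included TFPI, an inhibitor of blood coagulation (1.10), and HM13, the signal peptide peptidase (1.63). For ANXA5 they included TM4SF4 (1.73) and IGFBP3 (1.81). The annexins themselves were farther apart, at 3.4 for ANXA4 and ANXA5, 3.76 for ANXA1 and ANXA5, and 5.16 for ANXA1 and ANXA4. The ratio changed by −2.08 in TM4SF4, −1.72 in ALDH3A1, −1.57 in TFPI, −1.13 in IGFBP3 and −0.88 in HM13 in log2. These values went into the distance, so that they had to be similar.

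Among the partners of annexins, genes of the S100 family rose or did not pass the test upstream. Of 6 measured S100 genes, 3 rose and 0 fell in the upstream window after adjustment (limma, p under 0.05), where 11.7% of all genes were higher and 20.7% lower. Their median upstream log2 fold change was 0.76, where that of all genes was −0.24. The 6 genes are short (1642 to 15293 nt), and the medians of the 2 shorter length groups were 0.51 and 0.14. S100A13 went from 110.6 ± 0.993 to 299.3 ± 68.9 normalized upstream reads (n = 2; 1.41 in log2, SE 0.24, adjusted p = 0.00074, limma). This gene reached the minimum of 10 reads in both windows in UV+ only, with 11 downstream reads there and 6 in UV−. It was thus in the table only through the condition where it was higher. S100A16 went from 59.5 ± 0.549 to 121.8 ± 16.3 (n = 2; 1.02, adjusted p = 0.011, limma). S100A11, whose protein binds the N-terminus of annexin A1, went from 264.9 ± 99.7 to 488.2 ± 92.7 (n = 2; 0.92, adjusted p = 0.017, limma). Downstream, S100A11 also rose, with 1.89 (adjusted p = 0.024, limma). S100A4, a partner of annexin A2, had 589.3 ± 170.1 and 881.8 ± 100.7 upstream reads (n = 2; 0.61, adjusted p = 0.055, limma). Its downstream reads fell from 23.1 to 3.31 (−2.70 in log2, adjusted p = 0.034, limma). The ratio of S100A4 changed by −3.31 (SE 0.94, unadjusted p = 0.0048, adjusted p = 0.23, limma). It was the 1 call of the ratio at an unadjusted p under 0.05 in the 4 partner lists, where 2.4% of all genes were lower and 11% higher. S100A4 reached the minimum of 10 reads in both windows in UV− only, with 41 downstream reads there and 7 in UV+, which favors a lower ratio.

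Of 12 measured genes of ESCRT and ALG-2, which close membrane wounds, 1 rose and 2 fell upstream after adjustment (limma), near the 11.7% and 20.7% of all genes. PDCD6IP, which encodes the ALG-2 partner ALIX, went from 90.7 ± 19.3 to 33.9 ± 23.3 normalized upstream reads (n = 2; −1.56, adjusted p = 0.014, limma). CHMP2B, a subunit of ESCRT-III, went from 166.0 ± 32.9 to 96.8 ± 8.11 (n = 2; −0.76, adjusted p = 0.032, limma). This call was lost with DESeq2 (adjusted p = 0.081) and with TMM factors in limma (adjusted p = 0.054). CHMP2B reached the minimum of 10 reads in both windows in UV+ only, with 19 downstream reads there and 9 in UV−. IST1, related to ESCRT-III subunits, went from 26.5 ± 3.84 to 58.4 ± 12.8 (n = 2; 1.10, adjusted p = 0.029, limma), a call that was lost with DESeq2 (adjusted p = 0.11). VPS4A, the ATPase that takes ESCRT-III apart, had 1.14 (adjusted p = 0.061, limma). Downstream, 2 genes of this list rose, CHMP5 and VPS25, which are named because the count is small and after their values were seen (1.97 and 1.52, adjusted p = 0.044 and 0.043, limma), where 11.7% of all genes rose. CHMP5 reached the minimum of 10 reads in both windows in UV+ only. It had 21 upstream and 46 downstream reads there, and 4 and 10 in UV−. In UV− it was thus the upstream window that missed the minimum. The part of this entry in the downstream rise was not tested.

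Of 4 measured genes of calcium-dependent membrane repair, 0 rose and 1 fell upstream, where 11.7% and 20.7% of all genes did. The gene that fell was CAST, the inhibitor of calpain proteases, with 386.0 ± 14.5 and 87.5 ± 28.0 normalized upstream reads (n = 2; −2.17, SE 0.25, adjusted p = 6.3e-05, limma). CAPNS1, the small subunit of calpain, had 0.52 (adjusted p = 0.055, limma), PTRF, a coat protein of caveolae, 1.00 (adjusted p = 0.081, limma) and CAV1 0.02. Of 3 measured genes around annexin A1 signaling, 2 fell upstream, against the same 20.7% of all genes. PLA2G4A, the cytosolic phospholipase that annexin A1 inhibits, went from 364.6 ± 55.1 to 119.1 ± 17.9 (n = 2; −1.61, SE 0.23, adjusted p = 0.00025, limma). EGFR, a receptor tyrosine kinase that phosphorylates annexin A1, had log2 changes of −2.23 upstream (adjusted p = 3.3e-05, limma) and −2.56 downstream (adjusted p = 0.00037, limma). PTGS2, the inducible cyclooxygenase, had −0.10 (adjusted p = 0.73, limma). PDCD6IP, CAST, PLA2G4A and EGFR are 71137, 112645, 160082 and 188307 nt long and belong to the longest group of genes, whose median was −1.56. The part of length in these changes was not tested. Of the 9 upstream calls of these lists, all were lost without either UV− library and some without either UV+ library. Calls over all genes fell as well, to nearly none without either UV− library. With DESeq2 7 of the 9 calls of these lists were kept, and with TMM factors 8. The downstream calls of these lists, 3 higher and 2 lower, numbered 0 without any 1 library.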

How the data were processed

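Nuclear RNA of A549 cells was measured in 2 UV+ and 2 UV− libraries, which the methods describe as independent biological replicates. Reads were trimmed by the authors (cutadapt), mapped by TopHat2 on hg19, filtered on a mapping quality of 20 (SAMtools) and counted by featureCounts (R 3.4.0) in windows of 500 nt on each side of the PAS. Their methods give a minimum of 10 reads per window for a gene to be kept, which 4151 genes reached in both windows of 1 condition (recovered reads, sum of 2 libraries) and 57 did not. The deposited signal is these counts divided by 1 size factor per library, by the authors. The table also holds the authors' fold changes and p-values, which were not used.

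Whole reads were recovered for 100% of the values (tolerance 1e-06 read). Over all 4208 genes, limma 3.58.1 (R 4.3.3) was fitted to log2(value + 1) of each window and to the difference between them, with a variance that depends on the mean (for the ratio, on the mean downstream level). This scale understates the change of low values. P-values were adjusted by Benjamini-Hochberg. As alternatives, the fits were repeated with edgeR 4.0.16 and DESeq2 1.42.0 on recovered reads, with TMM factors, with pseudocounts of 0.5 and 5, with genes whose mean was 10 or more, with a replicate block and without each library in turn. A variance trend on the mean ratio was added after seeing the data. Positions came from GRCh37 and GENCODE 44, the build of the table, with Python 3.11.15. The genes named are the 3 annexins, every other annexin with a row, up to 4 genes of each partner list with the smallest upstream p, and the 3 nearest profiles of each annexin, of which some are not reported here. Members and lists were chosen with earlier results of these data known. Counts of 5 or fewer were completed after the values were seen.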

Additional observations from a re-analysis of the deposited data

How the results depend on the processing

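The downstream windows of the 3 annexins hold 0 to 13 reads per library, which limits every statement on their ratio, and with a mean of at least 10 reads their downstream and ratio values could not be computed. In log2, a pseudocount of 5 moved the ratio to −1.06 in ANXA1 and −1.06 in ANXA4, and the downstream change to −1.37 and −1.11. DESeq2 moved the ratio of ANXA4 to −2.35, and its downstream change was −2.14 with a pseudocount of 0.5, −2.35 with edgeR and −2.44 with DESeq2. Leaving out 1 library gave −3.37 to 0.057 for the ratio of ANXA5, −2.72 to 0.34 for its downstream level and −0.28 to 0.19 for the upstream level of ANXA4, which was also 0.038 with TMM factors. The upstream changes of ANXA1 and ANXA5 kept their direction in every setting. As their upstream libraries did not overlap between conditions, leaving out a library could not turn it. Among 27 genes, those of the partner lists with ANXA2 and ANXA11, 4 rose upstream after adjustment (8 with a pseudocount of 5, 8 with the mean filter, 7 with TMM factors, 0 to 3 without 1 library) and 5 fell (0 to 4 without 1 library). Downstream, 3 rose (1 with a pseudocount of 0.5, 5 with 5, 5 with the mean filter, 6 with edgeR, 1 with DESeq2, 6 with the replicate block, 0 to 0 without 1 library) and 2 fell (1 with a pseudocount of 0.5, 1 with DESeq2, 0 without 1 library). For the ratio at an unadjusted p under 0.05, 0 were higher (3 with a pseudocount of 5, 2 with the mean filter, 4 with edgeR, 2 with DESeq2, 1 with the replicate block, 1 with the trend on the mean ratio, 0 to 2 without 1 library) and 1 was lower (0 to 2 without 1 library).

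Over all genes, upstream calls were 492 higher and 872 lower (322 and 562 with DESeq2; 1 to 280 and 0 to 820 without 1 library), downstream calls 493 and 396 (205 and 126 with DESeq2, 237 lower with the mean filter; 7 to 105 and 8 to 106 without 1 library), and ratio calls 464 and 101 (245 and 44 with the mean filter; 217 to 568 and 36 to 270 without 1 library). A lone library was assumed to vary like the other condition, and the cause of these moves was not tested. The replicate numbers are shared by the conditions in the sample descriptions, while the sample titles number the UV+ libraries on from those of UV−. Libraries with the same number in the description did not deviate together (correlation of 0.03 for the ratio and 0 upstream). In this balanced design the block cannot move a change (−1.93 for the ratio of ANXA1). The block gave 1 of the 3 annexins a lower downstream level after adjustment, against 0 without it. Over all genes, 556 were lower with the block and 396 without it. With the trend on the mean ratio, 2 of the 3 annexins had a lower ratio at an unadjusted p under 0.05, as had 113 of the 4208 genes. ANXA2 had an unadjusted p under 0.05 for its ratio with edgeR and DESeq2 (1.16 and 1.18), not with limma.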
